A study of Mus musculus with 12 samples.

Results

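The livers of mice given either of 2 oral agents were compared, as 1 treated side, with livers of mice with untreated MASH, the metabolic dysfunction-associated steatohepatitis that a high-fat diet produced in this model. The comparison used 9 of the 12 livers of the series. The EE group (n = 3) was fed the high-fat diet and received Eleutheroside E at 100 mg/kg, the RES group (n = 3) was fed the same diet and received resmetirom at 3 mg/kg, and the MASH group (n = 3) was fed the diet and received the 0.5% CMC-Na vehicle. All 3 groups were C57BL/6J mice whose 8 weeks of model induction were followed by 4 weeks of dosing. The labels state neither age nor sex of the mice. The other 3 livers, from mice on normal chow given vehicle, took no part in the comparison. With 3 livers per group, each an RNA library of its own, the p-values measure the spread between these samples.

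Eleutheroside E is a lignan glycoside of Siberian ginseng, and resmetirom is an agonist of the thyroid hormone receptor beta, the main thyroid hormone receptor of hepatocytes. In a fatty liver, hepatocytes make fatty acids, take them up from blood, esterify them to triglyceride and store that in droplets coated by perilipin and CIDE proteins. The nuclear receptor PPARG, low in a lean hepatocyte, drives several of these droplet and uptake genes when fat accumulates. The genes described are mainly those whose level differed from MASH in the same direction with both agents. The rule given next was set to leave out genes particular to 1 agent, but genes that differed more with 1 agent could pass it.

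Each gene was given the mean of its EE minus MASH and RES minus MASH log2 differences, so that the agents weigh equally. A gene counted as shared when both differences had the same sign, the smaller was at least 1/3 of the larger, and EE and RES did not differ from each other at an adjusted p of 0.05. Of 13988 genes tested, 9481 had the same sign in both treatment means, 4507 had opposite signs, and 49 differed between EE and RES. The shared rule took in 6501 genes, of which 3439 were higher (24.6% of those tested) and 3062 lower (21.9%). Some shared genes came near the limit on EE against RES. Igkc, Igha, Chpt1 and Slc22a15 had adjusted p of 0.0693, 0.0725, 0.0716 and 0.0946 there (edgeR's quasi-likelihood test). Just outside the ratio limit lay Grk2 (ratio 0.319), Adgrg2 (0.322), Ddx39 (0.327) and Atp5g1 (0.330), and just inside it lay Slc22a7 (0.335), Tnfsf12 (0.335), Dpp4 (0.337) and Cuedc2 (0.338).

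The livers were not alike within groups. The hepatocyte genes were abundant in all 9: Alb, which encodes albumin, had 38770 to 71920 CPM (read counts scaled to the effective library total) in treated livers and 53320 to 67450 CPM in MASH livers. RES 1 stood apart. Its median over cell cycle genes was 1.91 log2 units above the MASH mean, over extracellular matrix genes 1.43, over monocyte and lipid-associated macrophage genes 1.25 and over Kupffer cell genes 1.03, while its median over pericentral hepatocyte genes was -1.35. In RES 2, 35.7% of counts came from the major urinary protein genes, which encode pheromone carriers, against 3.33% to 16.0% in the other 8 livers. Library totals lay between 17297864 and 21033066 counts. Scaling factors were 0.96 to 0.993 in EE livers, 0.663 to 1.41 in RES livers and 1.15 to 1.22 in MASH livers. With no scaling factors the medians of 15 of 46 gene lists changed sign, so the direction of those medians depended on scaling. Levels also differed between livers by base composition, with MASH 3 inside the treated range in the lowest and the highest class. Over the genes of lowest GC content (GC class 1 of 4 equal classes) the median difference from the MASH mean lay between -0.43 and -0.11 in the 6 treated livers and between -0.13 and 0.07 in the 3 MASH livers. Over class 4, with the highest GC content, it lay between 0.08 and 0.35 in treated livers and between -0.05 and 0.09 in MASH livers. The part of GC content in the results below was not tested. Values after an offset for GC and length are given for some of the genes and lists where they end a call or move a value.

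**Figure D1:**
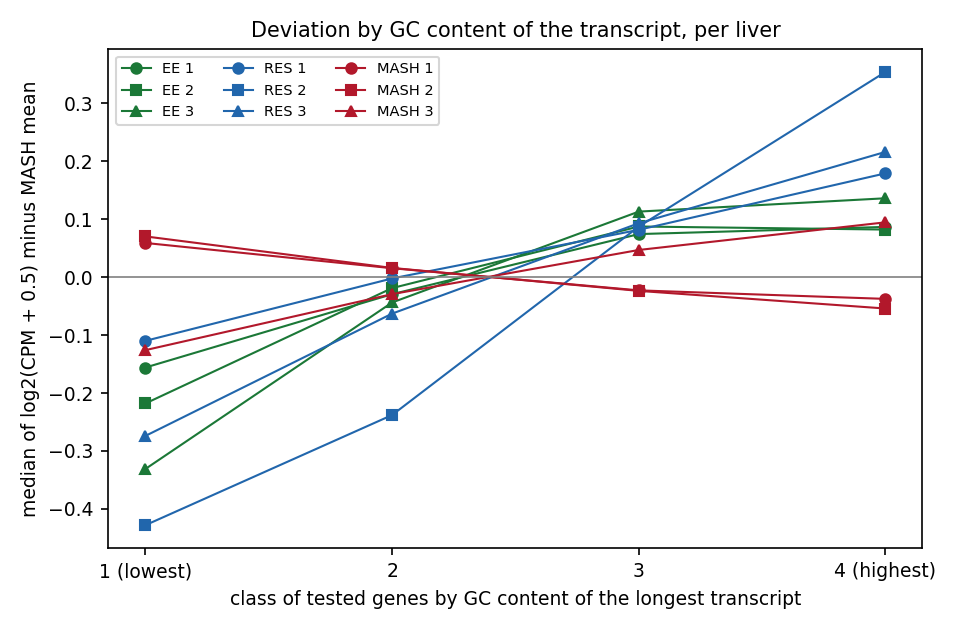
Median deviation of tested genes from the MASH mean, in log2(CPM + 0.5) units, by class of transcript GC content (1 lowest, 4 highest), with 1 line per EE, RES or MASH liver. All 6 treated lines are higher at class 4 than at class 1, RES 2 by the most (0.35 and -0.43), and so is the line of MASH 3.

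No gene passed an adjusted p of 0.05 for both treatments together against MASH (0% of 13988 tested; edgeR's quasi-likelihood test), and the lowest adjusted p was 0.0805. At an unadjusted p under 0.05 there were 2196 genes, 1008 of them higher and 1188 lower. Among them 836 shared genes were higher (5.98% of genes tested) and 937 shared genes were lower (6.7%). DESeq2 called 445 genes on the same counts, limma voom called 0, and limma voom with quality weights, which trusts a deviating library less, called 1767. Without RES 1, edgeR called 354 of 14228 genes: 148 higher (1.04%) and 206 lower (1.45%), of which 113 and 170 met the shared rule. For the single agents, EE against MASH gave 0 genes (1367 at an unadjusted p under 0.05) and RES against MASH gave 169. All directions below are therefore differences of level that did not pass the main test, and each adjusted p without RES 1 is named as such. Leaving out RES 1 gave the most calls of any single liver, and leaving out any other liver gave at most 32.

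A second description used no model. In 716 genes all 6 treated livers lay above all 3 MASH livers (5.12% of genes tested), and in 657 all 6 lay below (4.7%); 674 and 606 of these were shared. For the map of leading genes, shared genes without overlap also needed a symbol and a mean of at least 1 CPM. Gene models and pseudogenes were left out. Of the rest, the 12 with the smallest p in each direction are drawn. They were chosen by these values, so the map describes them and tests nothing.

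**Figure D2:**
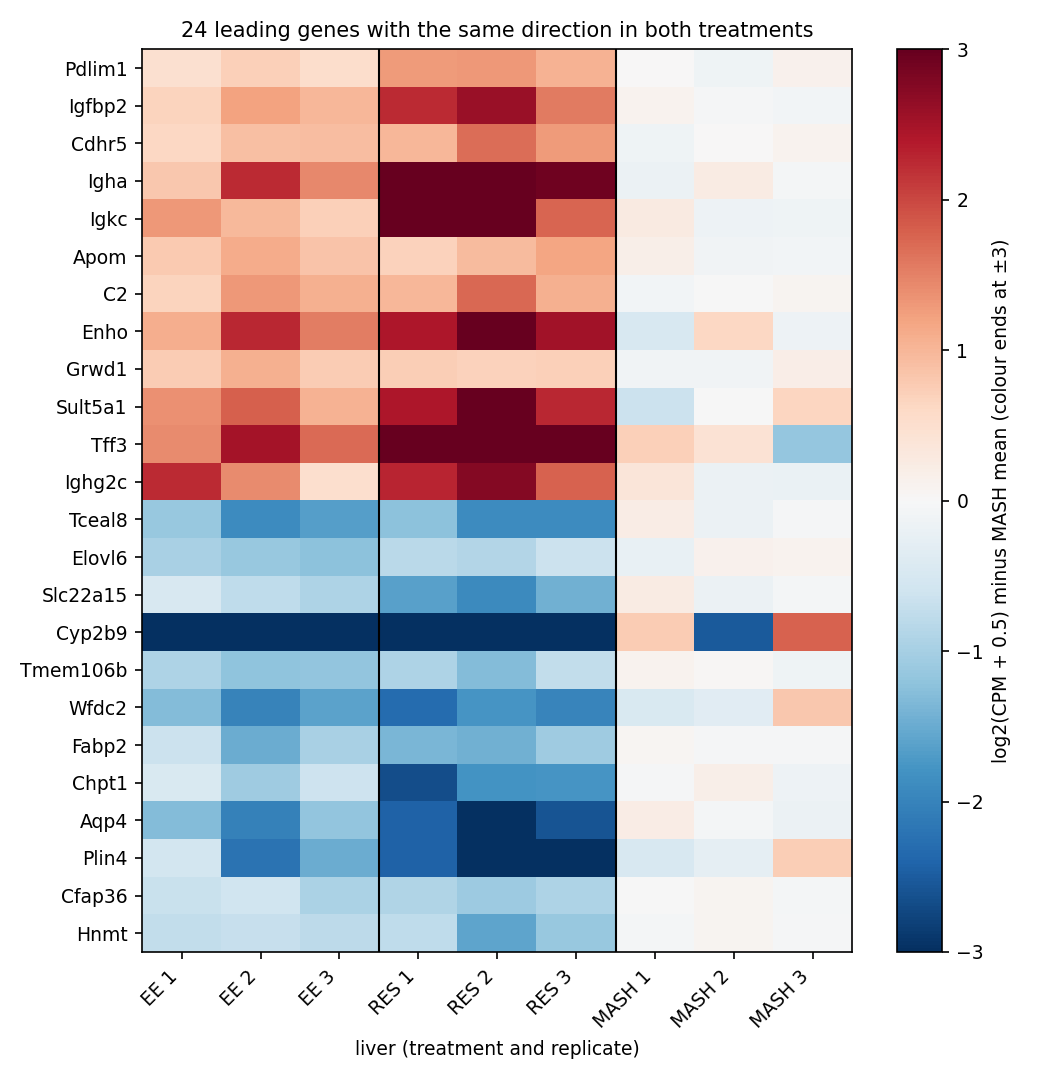
Level of 24 genes in each EE, RES and MASH liver, as log2(CPM + 0.5) minus the mean of the MASH livers, red for higher and blue for lower, with the colour ending at 3 units. In every line all 6 treated livers lie on one side of the 3 MASH livers, and Igha, Igkc and Tff3 are deepest red in RES livers.

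A first group of lower genes concerned fat storage and fat synthesis. Promoter windows of 3 of its genes follow, shown so that the stretch in front of genes that were lower together can be read. They come from RefSeq on GRCm38.p6, run from 250 bases before to 50 bases after a start, 5′ to 3′ on the gene's strand, and capitals mark the nuclear receptor half-site AGGTCA or its reverse complement TGACCT.
Elovl6, chr3:129532136-129532435, plus strand: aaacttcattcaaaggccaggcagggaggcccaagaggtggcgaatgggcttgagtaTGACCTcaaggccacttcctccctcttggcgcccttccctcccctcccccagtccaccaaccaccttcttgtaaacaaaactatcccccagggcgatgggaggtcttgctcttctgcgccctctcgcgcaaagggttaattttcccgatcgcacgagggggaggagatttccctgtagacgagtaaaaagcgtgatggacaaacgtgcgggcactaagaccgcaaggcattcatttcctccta
Cd36, chr5:17835847-17836146, minus strand: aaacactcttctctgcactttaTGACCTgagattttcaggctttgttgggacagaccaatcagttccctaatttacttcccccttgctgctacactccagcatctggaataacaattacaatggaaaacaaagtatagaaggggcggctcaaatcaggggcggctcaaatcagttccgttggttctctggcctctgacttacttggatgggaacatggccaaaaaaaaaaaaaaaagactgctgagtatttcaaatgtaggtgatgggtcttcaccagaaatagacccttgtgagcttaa
Pparg, chr6:115360894-115361193, plus strand, the most upstream of 3 starts: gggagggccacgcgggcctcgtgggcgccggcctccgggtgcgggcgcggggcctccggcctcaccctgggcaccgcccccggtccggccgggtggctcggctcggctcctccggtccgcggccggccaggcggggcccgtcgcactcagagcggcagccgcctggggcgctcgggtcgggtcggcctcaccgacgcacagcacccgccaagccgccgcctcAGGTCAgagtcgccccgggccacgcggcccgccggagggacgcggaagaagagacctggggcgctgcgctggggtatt
The half-site began 193 bases before the start of Elovl6, 228 before that of Cd36 and 28 before that of Pparg. Of the 13 windows of 8 lipid genes searched on both strands (Elovl6, Gpam, Fasn, Plin4, Cidec, Vldlr, Cd36 and Pparg), 5 held it, against 16.3% of 32851 promoter windows of the same length. At least 1 window each of Elovl6, Gpam, Cd36 and Pparg held it, though not every window of Gpam and Pparg did. No window of Fasn, Plin4, Cidec or Vldlr held it. The 8 genes were picked from the lower genes, and the printed windows because they held the half-site. The count therefore tests nothing. A match is a run of letters, not a bound site.

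Elovl6, the elongase that turns palmitate into stearate, had 44.6, 39.7 and 37.1 CPM in EE livers and 50.7, 47.7 and 56.7 CPM in RES livers, against 76.0, 96.2 and 94.6 CPM in MASH livers. The 6 treated livers lay below every MASH liver, EE a little lower than RES, and the spread within each group was small. The difference was -0.96 ± 0.13 (log2, SE; adjusted p 0.0805), and without RES 1 it was -0.95 with an adjusted p of 0.0239. Gpam, the mitochondrial enzyme that starts triglyceride synthesis, had 227, 144 and 233 CPM in EE livers and 150, 69.0 and 213 CPM in RES livers, against 389, 343 and 378 CPM in MASH livers. No treated liver reached a MASH liver, at a difference of -1.12 ± 0.30. Fasn, the fatty acid synthase, had 418, 206 and 488 CPM in EE livers and 440, 296 and 815 CPM in RES livers, against 845, 700 and 1182 CPM in MASH livers, so RES 3 lay inside the MASH range. Scd1, the desaturase that acts next, differed by -1.27 ± 0.61 and overlapped between treated and MASH livers. Of the 24 genes of fatty acid and triglyceride synthesis, 11 were shared lower and 2 shared higher, against 21.9% and 24.6% of all genes. Their median difference was -0.26, against 0.01 over all genes tested. Without overlap 4 lay lower, against 4.7% of all genes.

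Among droplet genes the differences were larger in size. Cidec, which fuses droplets into large ones, had 3.85, 2.18 and 7.45 CPM in EE livers and 12.1, 0.899 and 1.49 CPM in RES livers, against 13.2, 39.4 and 55.8 CPM in MASH livers. The highest treated value, in RES 1, lay just under the lowest MASH value. The difference was -2.93 ± 0.69 (adjusted p 0.166), and -3.95 without RES 1 (adjusted p 0.0343). Its relative Cidea, which is hardly expressed in a lean liver, had 1.18, 0 and 0.519 CPM in EE livers and 0.347, 0 and 0.0513 CPM in RES livers, against 1.23, 12.6 and 5.43 CPM in MASH livers. MASH 1 was nearly level with EE 1. Plin4, a droplet coat protein, had 7.96, 2.18 and 3.98 CPM in EE livers and 1.81, 0.974 and 0.871 CPM in RES livers, against 8.42, 9.91 and 20.4 CPM in MASH livers. EE 1 was close to MASH 1, and the other treated livers lay well below (difference -2.41 ± 0.41; adjusted p 0.101, and 0.0392 without RES 1). Plin2, the most general droplet coat protein of hepatocytes, differed by only -0.44 ± 0.23 and overlapped.

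Uptake genes lay with them. Cd36, a fatty acid transporter, had 45.7, 16.7 and 44.4 CPM in EE livers and 69.9, 9.29 and 21.5 CPM in RES livers, against 131, 98.2 and 139 CPM in MASH livers. Vldlr, a receptor for triglyceride-rich lipoproteins, had 1.13, 0.327 and 0.519 CPM in EE livers and 0.308, 0 and 0.410 CPM in RES livers, against 3.93, 1.55 and 5.93 CPM in MASH livers. Pparg itself had 7.39, 5.34 and 6.81 CPM in EE livers and 9.01, 2.32 and 4.82 CPM in RES livers, against 9.98, 18.5 and 16.9 CPM in MASH livers. For all 3 the treated and MASH livers did not overlap, and RES 1 was the highest RES liver for Cd36 and Pparg. The differences were -1.82 ± 0.51, -3.18 ± 0.58 and -1.34 ± 0.34, in that order, and each had an adjusted p under 0.05 without RES 1 (0.0345, 0.0406 and 0.0334). With any other single liver left out, none of the 3 had one, nor did Cidec or Plin4. Of the 25 droplet and uptake genes tested, 12 were shared lower and 5 shared higher, against 21.9% and 24.6% of all genes. In 7 all treated livers lay below all MASH livers, against 4.7% of all genes, and the list's median was -0.44. The list's medians were -0.20, -0.56 and -0.39 in EE livers and -0.63, -0.59 and -0.63 in RES livers, against -0.10, -0.06 and 0.19 in MASH livers. Cidea, Pparg and Fabp4 also stand in the adipocyte list, of whose 9 tested genes 3 were shared lower and 1 shared higher, at a median of -0.69. Over all genes the shares were 21.9% lower and 24.6% higher. That list's medians were -0.21, -0.61 and -0.47 in EE livers and -0.67, -0.48 and -1.51 in RES livers, against -0.03, -0.06 and 0.09 in MASH livers. The part of adipocyte RNA in the droplet genes was not tested. Plin1, a defining adipocyte transcript, had at most 0.0749 CPM in any treated liver and at most 0.0473 CPM in any MASH liver.

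**Figure D3:**
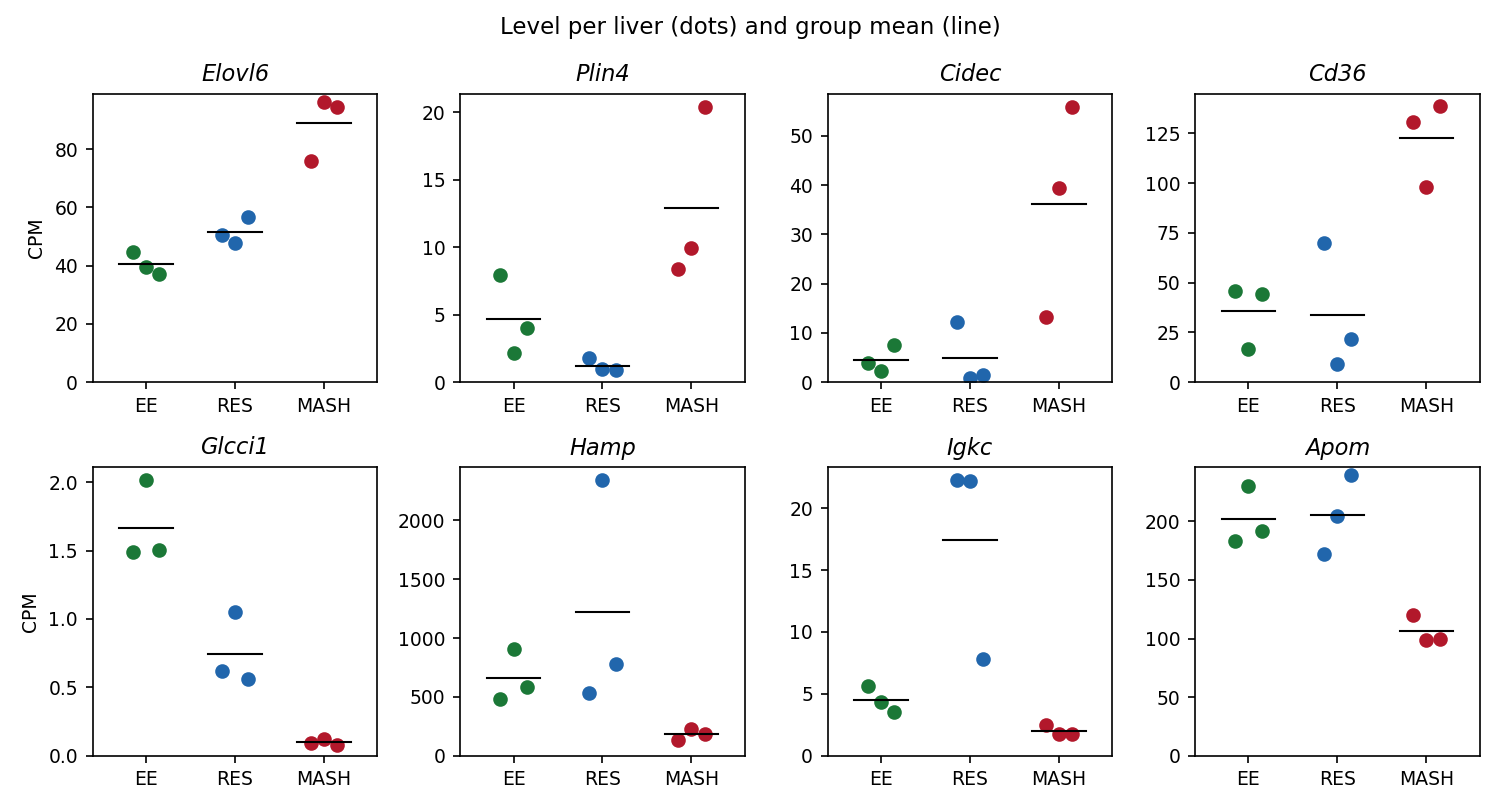
Level of 8 genes in CPM, each axis from 0, with a dot per liver and a line at the mean of EE, RES and MASH livers (3 each). For all 8 genes the 6 treated dots lie on one side of the 3 MASH dots.

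Further lower genes belonged to lipid handling or to no list. Fabp2, an intracellular fatty acid binding protein best known from intestine, had 66.7, 37.0 and 53.1 CPM in EE livers and 39.9, 37.9 and 49.6 CPM in RES livers, against 108, 103 and 103 CPM in MASH livers. The MASH livers were nearly equal and all treated livers were well under them (-1.15 ± 0.18; adjusted p 0.0335 without RES 1). Chpt1, which makes phosphatidylcholine, had 143, 94.8 and 129 CPM in EE livers and 31.0, 57.1 and 58.0 CPM in RES livers, against 194, 226 and 178 CPM in MASH livers. Both agents lay on the lower side, with RES lower than EE (-0.70 for EE and -2.04 for RES), and without RES 1 the gene no longer met the shared rule. Apob, the structural protein of very-low-density lipoprotein, differed by -0.75 ± 0.22 with no overlap. Sort1, a sorting receptor that binds apoB, lay the other way at 1.10 ± 0.21, though EE 1 at 18.5 CPM was inside the MASH range of 11.9 to 19.7 CPM. Apom, the apolipoprotein that carries sphingosine-1-phosphate, had 183, 230 and 192 CPM in EE livers and 172, 204 and 239 CPM in RES livers, against 120, 98.8 and 99.7 CPM in MASH livers. The 2 agents gave nearly the same difference for Apom, 0.93 for EE and 0.95 for RES (adjusted p of the pair together 0.117, and 0.0268 without RES 1).

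Tceal8, a small protein related to transcription elongation factors, had 8.37, 4.79 and 5.71 CPM in EE livers and 7.82, 4.79 and 4.82 CPM in RES livers, against 22.2, 16.8 and 18.7 CPM in MASH livers. The 2 treated groups could hardly be told from each other, at -1.61 for EE and -1.72 for RES, and the pooled difference was -1.66 ± 0.22 (adjusted p 0.0805, and 0.0186 without RES 1). Tmem106b, a lysosomal membrane protein, had 66.4, 54.8 and 55.6 CPM in EE livers and 66.0, 51.0 and 76.0 CPM in RES livers, against 135, 129 and 115 CPM in MASH livers. Hnmt, which inactivates histamine, had 11.9, 12.2 and 11.5 CPM in EE livers and 11.6, 6.44 and 8.97 CPM in RES livers, against 19.4, 21.5 and 19.8 CPM in MASH livers. In both the MASH livers stood close together above all treated livers. Aqp4, a water channel, and the transporter Slc22a15 were lower with both agents and lowest in RES livers, at -1.64 for EE and -3.45 for RES in Aqp4 and -0.76 for EE and -1.78 for RES in Slc22a15. Wfdc2 and Cfap36 differed by -2.22 ± 0.33 and -0.91 ± 0.16.

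The cytochrome P450 gene Cyp2b9, more active in female than in male mouse liver, had the largest difference of the 12 leading lower genes. It had 1.23, 0.218 and 1.27 CPM in EE livers and 0.462, 0 and 0.974 CPM in RES livers, against 39.0, 3.60 and 79.2 CPM in MASH livers. MASH livers varied among themselves by far more than treated livers did, and MASH 2 was the lowest of them (-5.88 ± 0.84; adjusted p 0.0805, and 0.0457 without RES 1). Reads of Cyp2b9 can be shared with close relatives in the Cyp2b cluster, so its count is uncertain. Of 11 female-biased genes tested, 4 were shared lower and none shared higher, against 21.9% and 24.6% of all genes. Of 27 male-biased genes, 12 were shared higher, against 24.6% of all genes, and none shared lower, with a median of 0.63. Selenbp2, a male-biased gene whose reads can be split with Selenbp1, had 808, 2236 and 1115 CPM in EE livers and 531, 2265 and 734 CPM in RES livers, against 72.0, 420 and 82.4 CPM in MASH livers. The male-biased list as a whole did not separate the groups: its medians were 0.97, 1.67 and 1.22 in EE livers and -0.48, 0.95 and -0.41 in RES livers, against -0.28, 0.73 and -0.45 in MASH livers. Without RES 2 its median was 0.36. Nor did the female-biased list separate the groups, with medians of -1.24, -1.47 and -0.40 in EE livers. Its medians were 0.15, -0.70 and -0.46 in RES livers, against -0.02, -0.50 and 0.565 in MASH livers. Only 11 of its 25 listed genes were tested.

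The single smallest p of all shared genes belonged to Glcci1, a gene first described as glucocorticoid-induced. It had 1.49, 2.02 and 1.5 CPM in EE livers and 0.616, 1.05 and 0.564 CPM in RES livers, against 0.0946, 0.126 and 0.0781 CPM in MASH livers. Even the lowest treated liver was several times above the highest MASH liver (3.40 ± 0.44; adjusted p 0.0805, and 0.0222 without RES 1), and the MASH level stood for only a few reads per library. Other glucocorticoid-induced genes varied more. Zbtb16, a transcriptional repressor, had 5.75, 5.5 and 6.29 CPM in EE livers and 4.58, 8.02 and 1.54 CPM in RES livers, against 2.22, 1.76 and 2.03 CPM in MASH livers, with RES 3 below all MASH livers. Per1, a clock gene, differed by 1.28 ± 0.42 and overlapped. Of 18 genes of the list, 7 were shared higher, against 24.6% of all genes, and 1 shared lower. The median of 0.61 was 0.18 without RES 1.

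A few genes of fuel metabolism and of secreted hormones were higher. Igfbp2, an insulin-like growth factor binding protein secreted by hepatocytes, had 242, 356 and 304 CPM in EE livers and 723, 929 and 449 CPM in RES livers, against 164, 149 and 146 CPM in MASH livers. Each agent alone separated from MASH, RES by more (0.97 for EE and 2.19 for RES; adjusted p together 0.0817, and 0.0277 without RES 1). Irs2, an insulin receptor substrate, differed by 0.76 ± 0.15 (adjusted p 0.0392 without RES 1), with EE 1 at 11.5 CPM just above MASH 1 at 11.3 CPM. Pck1, the entry enzyme of gluconeogenesis, and Angptl4, an inhibitor of lipoprotein lipase, differed by 0.84 ± 0.29 and 1.22 ± 0.33, and both overlapped. Enho, which encodes the secreted peptide adropin, had 12.2, 28.3 and 16.8 CPM in EE livers and 31.8, 91.6 and 34.0 CPM in RES livers, against 3.78, 8.74 and 4.92 CPM in MASH livers. No treated liver lay in the MASH range (2.44 ± 0.46). Of 20 listed genes of ketone body and glucose production, 19 were tested, 5 were shared higher, near the share of 24.6% over all genes, 3 were shared lower, and the median was 0.00.

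Several genes of secreted liver proteins and of liver metabolism differed, in both directions. Hamp, the iron hormone hepcidin, had 485, 909 and 581 CPM in EE livers and 531, 2344 and 780 CPM in RES livers, against 137, 230 and 187 CPM in MASH livers. Its near-identical copy Hamp2 differed by -2.02 ± 0.53, so the split of reads between the pair is uncertain. Tfrc, the transferrin receptor, had 8.78, 3.81 and 7.33 CPM in EE livers and 11, 6.52 and 4.72 CPM in RES livers, against 16.0, 15.7 and 15.8 CPM in MASH livers, and all treated livers were lower. Ahsg, the secreted protein fetuin-A, had 5506, 7743 and 6308 CPM in EE livers and 7904, 10050 and 6996 CPM in RES livers, against 3712, 3964 and 3822 CPM in MASH livers. The complement protease C2 had 91.7, 142 and 120 CPM in EE livers and 115, 192 and 120 CPM in RES livers, against 54.2, 57.1 and 61.1 CPM in MASH livers, again with no overlap (1.17 ± 0.22; adjusted p 0.0334 without RES 1). Of 30 complement and coagulation genes, 11 were shared higher, against 24.6% of all genes, and none shared lower. The median was 0.31, but 0.56 for EE and 0.06 for RES, with RES 1 at -0.28. Among the shared ones were C8b at 1.25 ± 0.32 and F12, coagulation factor XII, at 0.56 ± 0.17. Of 31 genes for handling amino acids and urea, 16 were shared higher, against 24.6% of all genes, and none shared lower. Their median of 0.24 was -0.05 with no scaling factors, where the median of all genes was -0.23. RES 1, at -0.46, lay below the MASH livers. Acmsd, of tryptophan breakdown, and Agxt, which detoxifies glyoxylate, differed by 1.11 ± 0.30 and 0.58 ± 0.20. Cyp2c70, which makes the muricholic acids of mouse bile, had 307, 607 and 254 CPM in EE livers and 465, 696 and 531 CPM in RES livers, against 184, 178 and 143 CPM in MASH livers. Serpina7, thyroxine-binding globulin, differed by -2.36 ± 0.63 (adjusted p 0.0222 without RES 1, where it no longer met the shared rule), with treated livers at 2.02 to 57.2 CPM and MASH livers at 68.7 to 106 CPM.

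Ribosomal protein genes were higher almost throughout their list. Of 34 genes for cytosolic ribosomal proteins, 31 were shared higher, against 24.6% of all genes, and none shared lower. In 21 the 6 treated livers lay above all MASH livers, against 5.12% of all genes tested. Such separation depended on scaling: over all genes, shared ones higher without overlap numbered 674, and 125 with no scaling factors. None of the 34 ribosomal genes had an adjusted p under 0.05, and 13 had an unadjusted p under 0.05. Rplp0, of the ribosomal stalk, had 419, 481 and 440 CPM in EE livers and 383, 702 and 418 CPM in RES livers, against 298, 308 and 287 CPM in MASH livers. The list medians were 0.33, 0.49 and 0.33 in EE livers and 0.10, 1.27 and 0.29 in RES livers, against 0.02, 0.03 and -0.08 in MASH livers, with RES 2 the highest and RES 1 the lowest treated liver. The pooled median of 0.55 was 0.30 without RES 2 and 0.34 after GC and length offsets. These short transcripts have many processed pseudogenes that can take part of their reads. Of 35 nuclear subunits of oxidative phosphorylation, 22 were shared higher, against 24.6% of all genes, and 2 shared lower. Their median of 0.33 was 0.14 without RES 2, and RES 1, at -0.21, lay below the MASH livers.

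Among the leading higher genes were immunoglobulin transcripts. Igkc, the kappa light chain, had 5.59, 4.30 and 3.52 CPM in EE livers and 22.3, 22.2 and 7.79 CPM in RES livers, against 2.46, 1.72 and 1.76 CPM in MASH livers. Igha, the IgA heavy chain, had 1.90, 5.99 and 3.23 CPM in EE livers and 45.6, 21.4 and 9.84 CPM in RES livers, against 0.710, 1.13 and 0.820 CPM in MASH livers. Jchain, which joins IgA and IgM units, had 2.10, 2.02 and 1.44 CPM in EE livers and 9.74, 2.92 and 2.20 CPM in RES livers, against 0.899, 0.962 and 0.586 CPM in MASH livers. All 3 separated treated from MASH livers, RES more than EE (adjusted p without RES 1 of 0.0361, 0.0268 and 0.0457). In bulk tissue, more cells of a type and more RNA per cell cannot be told apart. The B cell list as a whole had no common direction: 2 of 11 genes were shared higher, against 24.6% of all genes. Its medians were -0.53 for EE and 0.79 for RES. Summed B cell markers came to 11.4 to 19.8 CPM in EE livers and 57.2 to 163 CPM in RES livers, against 12.6 to 17.1 CPM in MASH livers.

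Some interferon-stimulated genes were shared higher, while the sign of their list's median depended on RES 1. Bst2, tetherin, had 106, 118 and 136 CPM in EE livers and 186, 278 and 149 CPM in RES livers, against 67.8, 77.1 and 83.3 CPM in MASH livers. Ifi27 differed by 0.86 ± 0.19 and Irf7, a transcription factor of the response, by 0.96 ± 0.26, both without overlap. Of 34 genes, 16 were shared higher, 4 shared lower and 6 lay higher without overlap, against 24.6%, 21.9% and 5.12% of all genes. The median of 0.15 was -0.05 without RES 1. The Kupffer cell list had 10 of 16 genes shared higher, against 24.6% of all genes, C1qa among them at 0.65 ± 0.24. Its median of 0.32 was 0.01 without RES 1. Summed Kupffer markers were 647 to 776 CPM in EE livers and 565 to 1182 CPM in RES livers, against 565 to 646 CPM in MASH livers. Of 23 endothelial genes, 15 were shared lower, against 21.9% of all genes, and none shared higher, at a median of -0.20. The list medians of EE 3, RES 1 and RES 3 were, however, above 0. Stress genes varied by liver: Asns, an amino acid response gene, had 1.44, 16.1 and 2.08 CPM in EE livers and 10.9, 4.42 and 1.38 CPM in RES livers, against 0.993, 0.669 and 0.859 CPM in MASH livers.

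**Figure D4:**
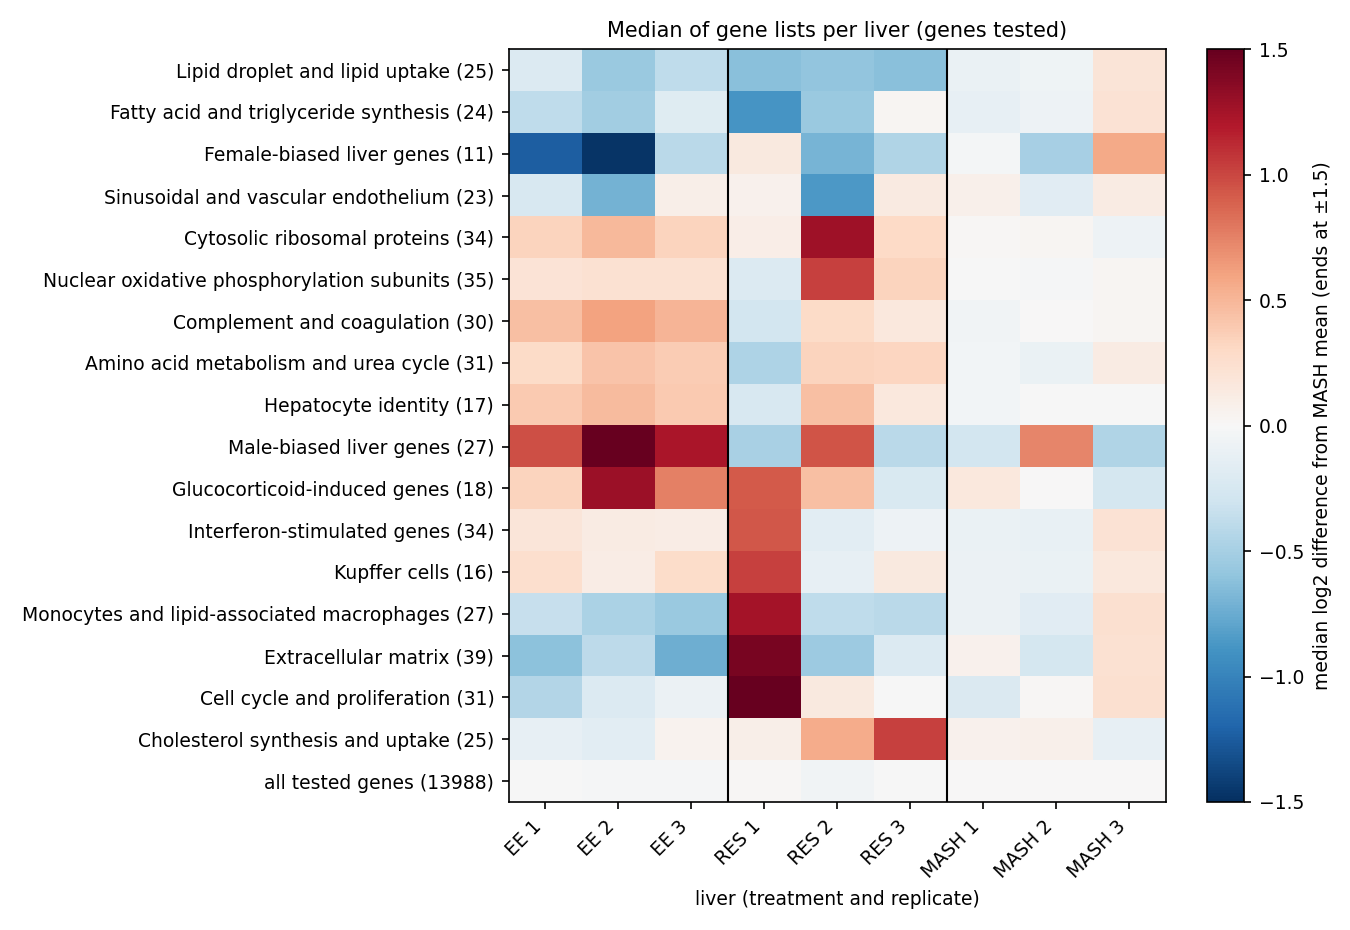
Median over each gene list, in log2(CPM + 0.5) minus the MASH mean, for each EE, RES and MASH liver, with the number of genes tested in brackets and the colour ending at 1.5. RES 1 alone is deep red for the matrix (1.43), macrophage and cell cycle (1.91) lists, while all 6 treated livers are blue for lipid droplet genes and red for ribosomal proteins.

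Extracellular matrix and cholesterol genes mostly did not meet the shared rule with all 9 livers. Of 39 extracellular matrix genes, 1 was shared higher, 1 shared lower and 37 neither, with list medians of -0.64 for EE and 0.55 for RES. RES 1 decided the RES value: without it the RES median was -0.41 and the pooled median -0.54, the same direction as EE. Col1a1, the main fibrillar collagen chain, had 5.24, 5.23 and 3.58 CPM in EE livers and 90.4, 9.14 and 7.54 CPM in RES livers, against 14.7, 10.7 and 22.1 CPM in MASH livers. RES 1 alone lay above the MASH livers, and the other 5 treated livers lay below all of them (-0.29 ± 0.68; -1.34 with an adjusted p of 0.0365 without RES 1). Gpnmb, a macrophage gene, followed the same order, with 0.565, 0.490 and 0.289 CPM in EE livers and 43.0, 0 and 0.564 CPM in RES livers, against 2.55, 2.93 and 8.43 CPM in MASH livers. Of 25 cholesterol genes 21 were not shared, at medians of -0.16 for EE and 0.61 for RES.

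Shared higher genes with an unadjusted p under 0.05 had a median transcript GC content of 53.8% and a median length of 2634 bases, shared lower ones 42.1% and 4212 bases, and all tested genes 49.4% and 3274 bases. After offsets for GC and length in each library, still no gene passed an adjusted p of 0.05 (edgeR; 1764 at an unadjusted p under 0.05), and the shared genes with an unadjusted p under 0.05 numbered 893 higher and 443 lower in place of 836 and 937. Without RES 1, 354 of all 14228 genes had an adjusted p under 0.05 in edgeR, and 204 did when the offsets were added. The genes listed for these checks were picked largely by small p in the same livers, so their counts test nothing. Of 45 listed genes with an adjusted p under 0.05 without RES 1, 27 also had one when the offsets were added. Among the 27 were Tceal8 (0.0258), Glcci1 (0.0299), Cidec (0.0353), Plin4 (0.046), Pparg (0.032), C2 (0.0304) and Igkc (0.031). The other 18 did not, among them Elovl6, whose difference was -0.58 (adjusted p 0.0552), Apom (0.0828), Fabp2 (0.0556), Cd36 (0.0556), Vldlr (0.0558), Cyp2b9 (0.0552) and Tfrc (0.085). Tmem106b and Chpt1 kept an adjusted p under 0.05, at smaller differences of -0.51 and -0.72, against -1.05 and -1.25 without the offsets. With no scaling factors the shared genes with an unadjusted p under 0.05 numbered 129 higher and 1187 lower. The balance of higher and lower genes differed between these settings.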

How the data were processed

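Poly(A) RNA of mouse liver was taken up in TRIzol and sequenced from stranded mRNA libraries as 150-base pairs, per the labels' protocols. The authors deposited expected counts per Ensembl gene, not scaled to a common total, and the submitters' processing notes name fastp and GRCm39 without versions. No source used here names the aligner, counter, annotation or strand setting. The 28036 genes by 12 libraries were rounded to whole counts. Symbols (22603 genes), GC content and length came from a GRCm38 annotation.

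Genes were kept with filterByExpr by group and scaled by trimmed mean of M values over all 12 libraries with edgeR 4.0.16 (R 4.3.3). A robust quasi-likelihood fit of the 9 EE, RES and MASH libraries tested the mean of EE and RES against MASH, with Benjamini-Hochberg adjustment over 13988 genes. Standard errors are the log2 difference over the root of F. CPM use the same scaling, and log2 levels add 0.5. The common biological coefficient of variation was 0.288 with 6 residual degrees of freedom, and 1 CPM before scaling stands for 17.3 to 21.0 counts, which limits the precision of low genes. limma 3.58.1, DESeq2 1.42.0, other scalings and filters, and leaving out each liver were the alternatives; offsets for GC and length, and leaving out RES 1 together with RES 2, were added after seeing the data. The fits were tested on simulated data. Libraries were not duplicates.

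Named genes were 12 per direction (shared, no overlap, a mean of at least 1 CPM, smallest p, with a symbol), up to 3 shared members with the smallest p of each of 46 lists (987 of 1073 symbols tested), and 22 fixed genes. List members outside it (Alb, Plin1) are marker checks, chosen after values were seen. The comparison, lists and fixed genes were chosen with earlier results of these data known.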

Additional observations from a re-analysis of the deposited data

How the results depend on the processing

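No gene passed an adjusted p of 0.05 in the main edgeR fit, nor with all 12 libraries in the fit, relative log expression, upper quartile or no scaling, limma voom, a filter at a mean of 1 CPM, filter and scaling over 9 libraries, major urinary protein and mitochondrial genes removed, or GC and length offsets. The counts of called genes, of shared higher and of shared lower genes were 445, 142 and 188 with DESeq2, 1767, 707 and 824 with limma voom and quality weights, and 141, 27 and 76 with no filter, which tests 26631 genes. They were 204, 95 and 58 with offsets and RES 1 left out, and 713, 342 and 254 with RES 1 and RES 2 left out. Leaving out 1 liver gave 0 to 354 called genes, 0 to 113 shared higher and 0 to 170 shared lower; without RES 2 it was 26, without RES 3 32 and without MASH 2 1. The deviations of same-numbered livers correlated at 0.00 to 0.28, not all over 0.1. Those of differently numbered livers of 2 groups correlated at -0.21 to 0.05. MASH 3 correlated better with RES 1 than with RES 3. The numbers were therefore not taken as pairs, though a pairing is not excluded, and all 3 EE and MASH pairs were over 0.2. The replicate block gave 13 called genes, 4 shared higher and 5 shared lower.

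Shared genes with an unadjusted p under 0.05 (836 higher and 937 lower) numbered 129 higher with no scaling, 1725 and 1840 with quality weights, 443 lower with offsets, 1792 higher with offsets and RES 1 left out, 1529 and 1539 with RES 1 and RES 2 left out, and 156 and 182 at a log2 difference of at least 1. Leaving out 1 liver gave 408 to 1497 higher and 491 to 1668 lower. Shared genes without overlap (674 and 606) numbered 125 and 1151 with no scaling, 335 lower with offsets, 1476 higher with offsets and RES 1 left out, and 1635 and 1434 with RES 1 and RES 2 left out; leaving out 1 liver gave 720 to 1291 higher and 668 to 1401 lower, where fewer livers must agree. The causes of the other shifts were not tested.

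Col1a1, not shared, changed sign without MASH 3, and ranged from -1.34 to 0.0284 when 1 liver was left out. The other 71 of 72 genes listed for these checks kept their sign in every alternative run. Those genes were picked largely by small p in the same livers, so the kept signs test nothing. Low genes such as Glcci1 and Vldlr rest on few reads in some livers.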

Other observations

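Other gene lists gave the following counts, beside 24.6% shared higher and 21.9% shared lower over all genes tested. Of 21 genes of the NRF2 antioxidant response tested, 7 were shared lower and 1 shared higher, at a median of -0.24. Of 26 proteasome subunits, 12 were shared higher and 1 shared lower, at a median of 0.11. Of 20 heat shock protein genes, 8 were shared higher and 1 shared lower (median 0.40). Of 29 genes of fatty acid oxidation, 3 were shared higher, 4 shared lower and 22 neither (median -0.23).

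The chow-fed control livers give a further level for some of the named genes, though control 1 had 35.4% of its counts from mitochondrial genes. Glcci1 had 1.49, 2.02 and 1.5 CPM in EE livers and 0.616, 1.05 and 0.564 CPM in RES livers, and 3.12, 2.28 and 1.57 CPM in control livers. Cidec had 0.899 to 12.1 CPM in treated livers and 0.101, 1.99 and 1.88 CPM in control livers. Fabp2 had 37.0 to 66.7 CPM in treated livers and 33.5, 30.6 and 43.4 CPM in control livers. Elovl6 had a higher control level, with 37.1 to 56.7 CPM in treated livers and 87.3, 139 and 90.0 CPM in control livers. The leading lower genes had no common control level. Control means were 128 CPM for Tmem106b and 190 CPM for Chpt1, near the MASH means of 127 and 199 CPM. For Cyp2b9 the control mean was 0.252 CPM, against a MASH mean of 40.6 CPM. Tff3, a trefoil peptide of mucous epithelia, had 6.78, 14.9 and 8.31 CPM in EE livers and 43.3, 144 and 31.6 CPM in RES livers, and 1.00, 1.35 and 1.68 CPM in control livers.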
